A study of Mus musculus with 24 samples.

Results

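Shox2, Lmx1b, En1 and Emx2 are 4 homeobox genes that pattern the limb along its axes, and their chromatin was compared between cartilage of the jaw and of the limb. The comparison rests on peak lists: ATAC-seq peaks, which mark DNA open to a transposase, and peaks of H3K27ac, a histone mark of active enhancers and promoters. Each peak was given to the protein-coding gene whose span holds its midpoint, or else to the nearest gene within 1 Mb. In this way 131 of the 157342 merged ATAC regions of the study fell to the 4 genes, which are 4 of 21631 protein-coding genes considered. Lmx1b took 50 of these regions, En1 42, Emx2 23 and Shox2 16. All 4 genes are reported, and each passed the filter on low cover. They were named for their roles in the limb and not by a measured value.

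The tissues came from wild-type (wt) C57BL/6 mouse embryos, and no group carries a transgene or a treatment. Meckel's cartilage (MC), the rod of cartilage of the embryonic lower jaw, and forelimb cartilage (FL) were dissected at E14.5, with 3 ATAC-seq and 3 H3K27ac CUT&Tag libraries each. Mandibular processes, the tissue of the lower jaw at an earlier stage, were dissected at E12.5 for 2 ATAC-seq libraries. Their titles and protocol name E12.5, ATAC-seq and the mandibular process, while their cell type label names Meckel's cartilage and their description another stage and assay. Nothing in the labels tells separate embryos from pools among the replicates, so p-values measure only the spread between these libraries.

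In the limb, Shox2 acts in the proximal skeleton, where mice that lack it have a very short upper arm bone. Lmx1b, a LIM homeobox factor, specifies dorsal limb identity, and Wnt7a from the dorsal ectoderm induces it. En1 is made in the ventral ectoderm, where it restricts Wnt7a. Emx2 is needed for the scapula and the ilium, the girdle bones that carry the limbs. Shox2 is also expressed in the palate, and Lmx1b and En1 also act in the midbrain and hindbrain. Several of these genes lie beside long stretches without other genes, which in developmental loci often hold distant enhancers.

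Before the genes are described, 1 library has to be set apart. E12.5 replicate 1 listed 85.6 Mb of ATAC peaks, against 40.7 to 53.0 Mb in the other 7 libraries, and 10.0% of its peaks were longer than 2 kb, against 1.95% to 5.73%. Its covered bases shared a Jaccard index (shared over joint bases) of 0.198 with E12.5 replicate 2, whereas replicates of MC shared 0.363 to 0.470 and those of FL 0.425 to 0.452. MC libraries shared 0.330 to 0.443 with FL libraries, which overlaps both of those ranges. Differences, shares and region counts that rest on E12.5 replicate 1 are given below with and without it, while the combined E12.5 list, pooled by the authors, cannot be given without it. Region counts without it drop its calls only, and the regions remain those merged from all 8 libraries. The labelled tissues were checked on marker genes, as the peak cover summed over each list, which is not expression. The 6 cartilage markers had 48.6 to 58.1 kb in MC, 32.2 to 44.8 kb in FL and 32.8 to 84.1 kb in E12.5 mandible, with none at 0 in every library of a tissue. The 5 forelimb markers had 2.92 to 3.17 kb in MC, where Hoxa10 and Hoxd10 were at 0 in each library, and 14.0 to 18.4 kb in FL. In E12.5 mandible they had 3.96 to 13.6 kb, with Tbx5 at 10.4 kb in replicate 1 and 1.93 kb in replicate 2. The 6 mandible markers had 39.3 to 51.2 kb in MC, against 26.2 to 34.2 kb in FL and 36.9 to 47.8 kb in E12.5 mandible. Of these, 4 were higher in every MC library than in any FL library, and 1, Hand2, was lower (means of 10.4 and 17.3 kb). Blood markers had 18.7 to 19.7 kb in MC, against 21.8 to 29.0 kb in FL, with Gata1 at 0 in both tissues, and neuron markers 6.99 to 8.64 kb in MC, against 9.28 to 11.4 kb in FL. Single markers of these 2 lists went both ways. Spi1 and Tubb3 were higher in every MC library than in any FL library, and Ptprc and Stmn2 were lower. The sums of MC and FL overlapped for the muscle, epithelium, endothelium, osteoblast and tendon lists. Among their markers, Myod1 was higher in every MC library than in any FL library, and Myh3, Epcam and Trp63 were lower. E12.5 mandible lay above both tissues for the muscle and epithelium lists (epithelium 14.4 to 15.7 kb). It lay below both for the endothelium and osteoblast lists. The part of these cells in the results was not tested, and in such bulk tissue fewer cells of a type and less open chromatin per cell cannot be told apart.

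The start sites are the stretch of each locus where the lists can be set beside a known sequence. The 250 bases before each start are printed for the 4 genes (RefSeq, GRCm38.p6, which is mm10), because ATAC peaks lay over these windows to different extents in the tissues. They run 5′ to 3′ on the strand of the gene, from chr3:66981772-66982021 (minus) for Shox2, chr2:33641099-33641348 (minus) for Lmx1b, chr1:120602237-120602486 (plus) for En1 and chr19:59458440-59458689 (plus) for Emx2. Capitals mark matches, on either strand, to the motifs TAATTA (homeodomain core), ACAATGG and CCTTTGT (SOX), CACCTG (E-box) and TGACAG (MEIS).
Shox2: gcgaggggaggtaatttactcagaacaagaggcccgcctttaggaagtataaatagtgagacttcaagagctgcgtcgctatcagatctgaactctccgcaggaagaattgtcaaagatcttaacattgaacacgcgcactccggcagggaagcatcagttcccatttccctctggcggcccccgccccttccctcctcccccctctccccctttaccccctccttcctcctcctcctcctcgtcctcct
Lmx1b: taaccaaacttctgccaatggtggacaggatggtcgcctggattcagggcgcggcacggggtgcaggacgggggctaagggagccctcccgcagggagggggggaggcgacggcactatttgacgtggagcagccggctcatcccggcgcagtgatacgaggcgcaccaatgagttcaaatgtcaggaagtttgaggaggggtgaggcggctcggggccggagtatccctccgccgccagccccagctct
En1: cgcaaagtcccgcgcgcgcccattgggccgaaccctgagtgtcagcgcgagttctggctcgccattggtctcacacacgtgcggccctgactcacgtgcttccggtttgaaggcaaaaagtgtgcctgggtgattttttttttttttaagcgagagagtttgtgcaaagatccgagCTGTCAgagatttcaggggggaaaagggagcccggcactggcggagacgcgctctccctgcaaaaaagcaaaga
Emx2: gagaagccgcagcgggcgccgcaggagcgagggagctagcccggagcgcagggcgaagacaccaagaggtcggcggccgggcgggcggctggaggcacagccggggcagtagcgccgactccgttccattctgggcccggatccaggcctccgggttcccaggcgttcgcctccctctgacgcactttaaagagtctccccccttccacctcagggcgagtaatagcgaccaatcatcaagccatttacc
The only match to these motifs in the 4 windows was a TGACAG on the minus strand, 74 to 69 bases before the start of En1. TGACAG is held by 15.9% of 32851 windows of this kind, CACCTG by 17.2%, CCTTTGT by 5.08%, TAATTA by 4.84% and ACAATGG by 3.02%. A match is a description of letters only, and the lack of one says nothing about a factor. The windows held 55.6% G and C in Shox2, 65.2% in Lmx1b, 56.0% in En1 and 67.2% in Emx2, against a median of 52.4% over all windows. They held 11, 19, 19 and 24 CpG in the same order of genes, against a median of 6.

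ATAC peaks over the start, from 250 bases before it to 50 after it, fell into different patterns in the 4 genes. The share of all gene starts with a peak over this window is not given here. Shox2 and Emx2 had a peak over this window in all 3 MC, all 3 FL and both E12.5 libraries. At En1 a peak lay over it in 1 of 3 MC libraries, in 3 of 3 FL libraries and in neither E12.5 library. At Lmx1b it was covered in 1 of 3 MC libraries, 1 of 3 FL libraries and 1 of 2 E12.5 libraries, replicate 1. None of the tissues had it in each library. The authors' combined H3K27ac lists, 1 per tissue and so without replicate error, differed in another way. In the MC list a peak covered the whole 300-base window at Emx2 and 73 bases of it at Shox2, and none lay over it at Lmx1b or En1. In the FL list a peak covered the whole window at Shox2 and Lmx1b, and none lay over it at En1 or Emx2. Emx2 had an ATAC peak at its start in every library of both tissues, with an H3K27ac peak there in the combined MC list and not in the combined FL list.

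Shox2 (chr3:66971723-66981771, minus strand, mm10) had less open chromatin in MC than in FL, and much of the difference lay far from the gene. Its ATAC peak cover, scaled so that each library has the same total, was 3.21, 4.30 and 4.05 kb in the MC libraries, 12.7, 5.61 and 7.24 kb in the FL libraries and 1.03 and 4.70 kb in E12.5 mandible. Every MC library lay below every FL library. The means were 3.85 ± 0.57 kb for MC and 8.50 ± 3.70 kb for FL (SD, n = 3 each). The log2 difference, MC minus FL, was -0.98 on the log2(kb + 0.5) scale (SE 0.49, 95% interval -2.08 to 0.12), which did not pass limma's test over 16176 genes (adjusted p = 0.987). No gene passed that test between MC and FL, and 8.96% of genes had MC libraries all below FL libraries, so a lack of overlap as such is common. The fit shares 1 estimate of spread per gene over all 8 libraries. Each SE, interval and p of MC minus FL therefore includes the spread between the 2 E12.5 libraries. In a fit of MC and FL alone 8 genes passed, and none of the 4 genes was among them.

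**Figure D1:**
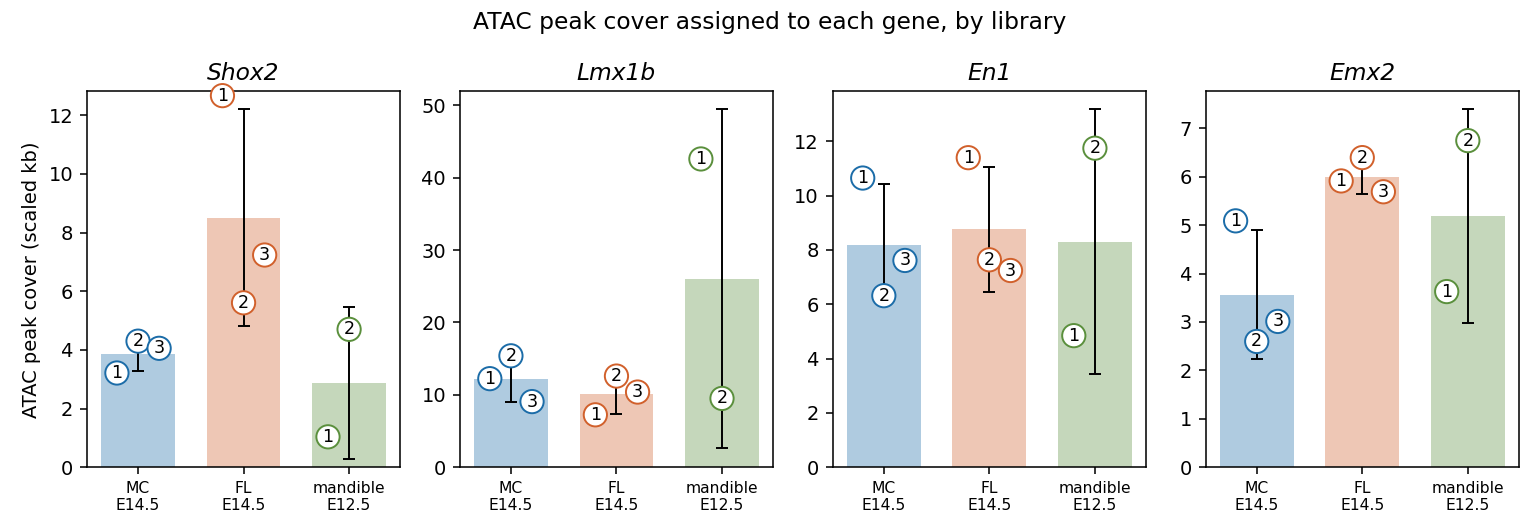
ATAC peak cover assigned to each gene (scaled kb, vertical axis) in the 3 MC, 3 FL and 2 E12.5 mandible libraries. Circles carry the replicate number, bars are means and whiskers SD. Shox2 and Emx2 are lower in every MC library than in any FL library, and E12.5 replicate 1 reaches 42.6 kb at Lmx1b.

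The regions of Shox2 show where the cover lay. MC libraries held peaks in 6 of its 16 regions (37.5%), FL libraries in 12 (75.0%) and E12.5 libraries in 7 (43.8%). Over all regions these shares were 46.0% for MC, 53.2% for FL and 67.4% for E12.5. Without E12.5 replicate 1 the Shox2 shares stayed at 6, 12 and 7 of 16 regions, and those over all regions were 57.4% for MC, 66.5% for FL and 50.4% for E12.5 replicate 2. A region at chr3:66649969-66651528, 331 kb downstream of the start, was called in none of the 3 MC libraries, in all 3 FL libraries and in neither E12.5 library. It measured 1560 bp, and its peaks covered 1.56, 1.42 and 1.11 kb of it in FL. A distal region, chr3:66797556-66799478, 183 kb downstream, was open in 3 of 3 MC libraries, 3 of 3 FL libraries and 1 of 2 E12.5 libraries. Another, chr3:66737940-66740024, 243 kb downstream, was called in 2 of 3 MC, 3 of 3 FL and 1 of 2 E12.5 libraries. Near the gene the tissues were more alike: the region over the start, chr3:66980519-66983027, was called in all 8 libraries. With peaks limited to 100 kb from the gene the log2 difference was -0.43, against -0.98 with distant peaks included. Peaks over the start went to Shox2 or to Rsrc1, whose span overlaps that of Shox2 by 407 bp, depending on where their midpoints fell. With each of them counted for Shox2, a choice made after seeing the data, the gene had 3.55, 5.37 and 5.36 kb for MC and 12.7, 5.99 and 9.51 kb for FL, still without overlap (log2 difference -0.87, limma adjusted p = 1).

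The combined lists gave Shox2 the lowest MC-to-FL ratio of the 4 genes in both assays, by an amount that turned on how peaks were assigned. In ATAC it had 3 peaks and 2.72 kb in MC, 6 peaks and 7.77 kb in FL, and 3 peaks and 1.42 kb in E12.5 mandible. Here too the peak over the start went to Shox2 in the FL list and to Rsrc1 in the MC and E12.5 lists. With it counted for Shox2, the cover was 3.86 kb in MC, 7.77 kb in FL and 3.44 kb in E12.5 mandible. The scaled log2 ratio of MC to FL was -1.18, lower than in all but 4.28% of genes, while 4.88% of 14807 genes had over 2-fold more ATAC cover in MC and 5.46% over 2-fold more in FL. The ratio was -0.75 with each start peak counted for Shox2 and -0.39 either with peaks limited to 100 kb, where Emx2 was lower at -0.46, or with every peak within 250 kb, and each of these is under 2-fold. In H3K27ac it had 3 peaks and 16.3 kb in MC and 4 peaks and 40.1 kb in FL, a log2 ratio of -1.12, while 19.1% of 14359 genes had over 2-fold more cover in MC and 15.9% over 2-fold more in FL. With every peak within 250 kb it was -0.34, also under 2-fold. The FL peak over the gene spanned 13.5 kb, and the MC peak there 4.35 kb. About 336 kb downstream the FL list had a peak of 15.0 kb, which holds the FL-specific ATAC region, and the MC list had a peak of 4.35 kb that ends short of it. A 7.05 kb FL peak 182 kb downstream had no counterpart in the MC list, although the ATAC region beneath it was open in all 3 MC libraries. The peak at about 242 kb went the other way, with 7.61 kb in the MC list and 4.50 kb in the FL list.

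Lmx1b (chr2:33560965-33641208, minus strand) did not separate MC from FL in ATAC cover, and its values turned on E12.5 replicate 1. It had 12.2, 15.4 and 9.06 kb in the MC libraries, 7.23, 12.6 and 10.4 kb in the FL libraries and 42.6 and 9.50 kb in E12.5 mandible. MC and FL libraries overlapped, with a log2 difference of 0.27 (SE 0.53, 95% interval -0.91 to 1.45, limma adjusted p = 1). That SE, interval and p include the spread between the E12.5 libraries, at 42.6 and 9.50 kb. E12.5 replicate 1 listed 48 peaks and 71.8 kb at Lmx1b, and replicate 2 listed 17 peaks and 9.02 kb. That single library was the only one to call 26 of the 50 regions of the gene (52.0%), whereas 20.0% of all regions were called by it alone. The combined E12.5 list held 33 peaks and 49.0 kb at Lmx1b, against 7 peaks and 4.55 kb in the MC list and 9 peaks and 5.80 kb in the FL list.

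Against this spread, 3 regions of Lmx1b were called in all 8 libraries, of 6 such regions assigned to the 4 genes; the region over the Shox2 start, also called in all 8, was assigned to Rsrc1 and is not among them. These 6 are 4.58% of the 131 regions, and 10.0% of all regions were called in all 8 libraries. Without E12.5 replicate 1, 7 of 97 regions were called in each of the 7 remaining libraries (7.22%, against 15.1% of all regions). The Lmx1b regions were chr2:33543261-33545519 and chr2:33546181-33547728, 96.7 and 94.1 kb downstream of the start and beyond the end of the gene, and chr2:33591067-33595887 inside the gene. All 3 had H3K27ac peaks in the combined lists of MC and FL. Regions join overlapping peaks, among them the long peaks of E12.5 replicate 1, so libraries can hold different parts of a region. In chr2:33591067-33595887 the FL replicate 1 peak lay 46.04 to 46.33 kb downstream and the E12.5 replicate 2 peak 47.78 to 48.42 kb. In chr2:33543261-33545519 the FL replicate 3 peak lay 96.24 to 96.73 kb downstream and the E12.5 replicate 2 peak 96.78 to 97.33 kb. A region 24.1 kb upstream of the start, chr2:33664417-33666037, was called in none of the 3 MC libraries, in all 3 FL libraries and in both E12.5 libraries, with H3K27ac peaks in the combined lists of both tissues. Close beside it, chr2:33666120-33666893 was called in MC replicate 1 alone. Another upstream region, chr2:33658864-33659612, showed the reverse over stage: it was called in all 3 MC and all 3 FL libraries and in neither E12.5 library. An intragenic region, chr2:33613599-33615034, was called in no MC library, no FL library and both E12.5 libraries.

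H3K27ac cover of Lmx1b in the combined lists was 55.9 kb over 6 peaks in MC and 93.3 kb over 10 peaks in FL, a log2 ratio of -0.58. The FL list covered the start with a peak of 11.2 kb and added peaks of 4.83, 4.24 and 4.89 kb along the locus where the MC list had none. The largest MC peak, of 19.3 kb, lay inside the gene, over chr2:33591067-33595887, a merged region with a peak in each of the 8 libraries. When every peak within 250 kb was counted, whatever its gene, the log2 ratio was 0.03.

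**Figure D2:**
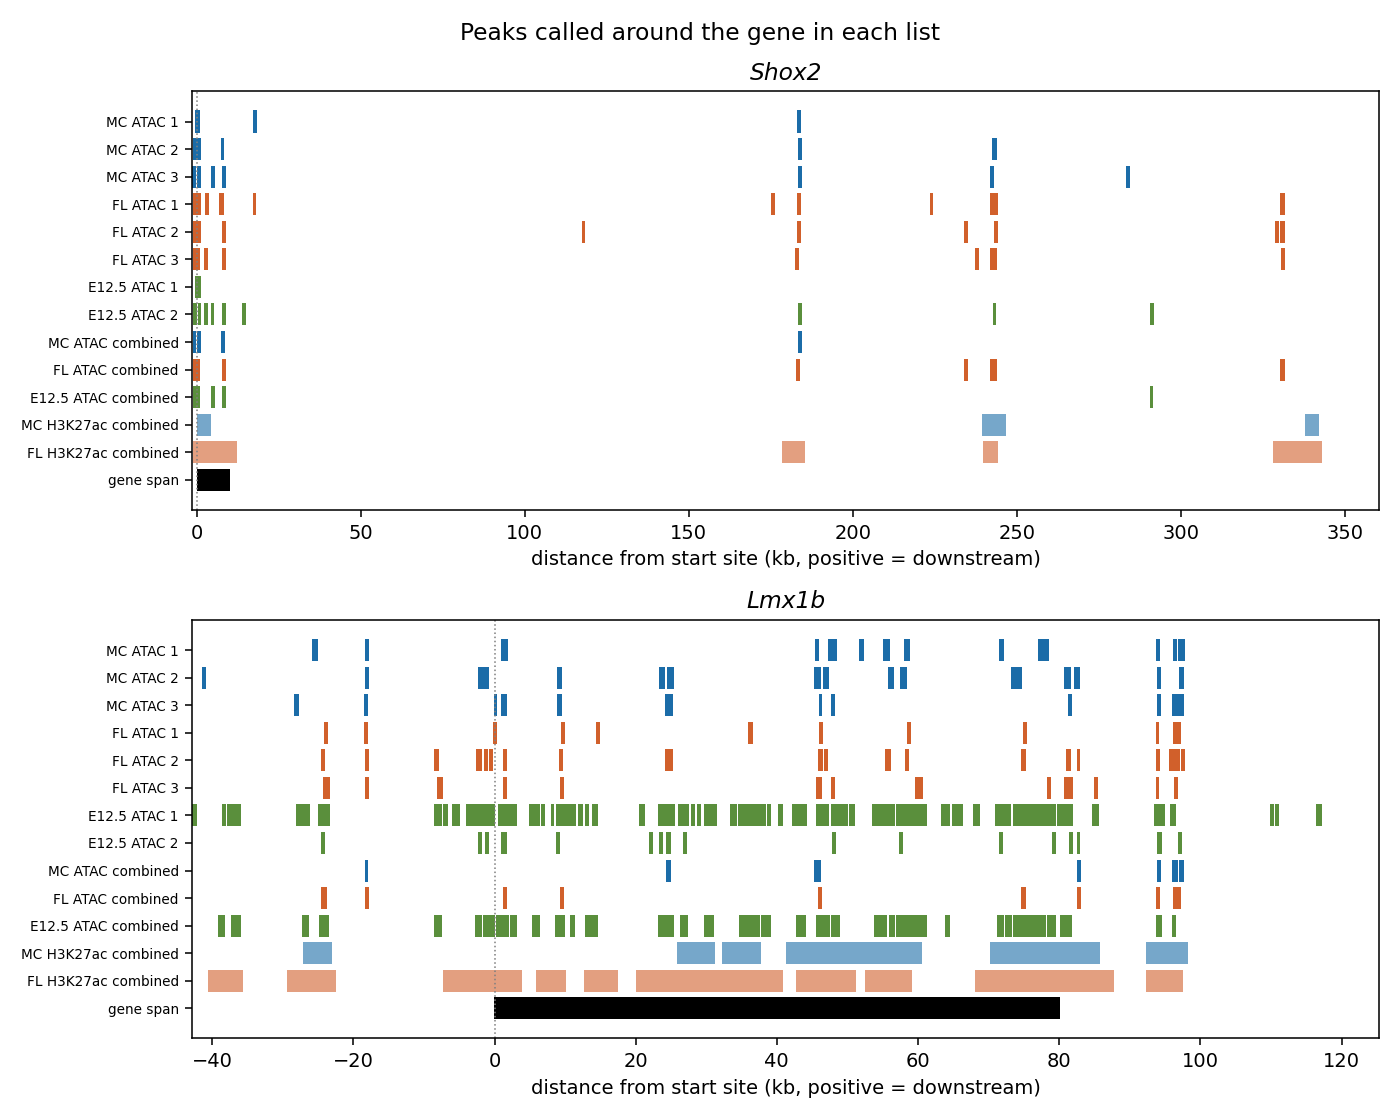
Peaks around Shox2 and Lmx1b by distance from the start site (kb, horizontal axis; positive is downstream), with a row for each ATAC library, each combined list and the gene span. The region 331 kb downstream of Shox2 holds ATAC peaks in the 3 FL library rows and the combined FL row, and in no MC or E12.5 row, and E12.5 replicate 1 fills the Lmx1b panel with 48 assigned peaks.

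En1 (chr1:120602487-120607991, plus strand) had overlapping ATAC cover in MC and FL when the whole locus was summed. On its 2 sides the means differed in opposite directions, and the libraries were apart on the upstream side alone. The gene had 10.7, 6.32 and 7.61 kb in the MC libraries, 11.4, 7.64 and 7.24 kb in the FL libraries and 4.84 and 11.7 kb in E12.5 mandible. The 3 groups overlapped, and the log2 difference between MC and FL was -0.09 (SE 0.41, 95% interval -1.01 to 0.82, limma adjusted p = 1). That difference changed sign with the processing, to 0.63 with peaks within 100 kb and 0.07 with every peak within 250 kb, so no direction is given for the gene as a whole.

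Upstream of En1, in the 97.5 kb up to Marco, a scavenger receptor gene, MC had the higher cover. The ATAC peaks there summed to 6.68, 4.01 and 3.11 kb in the MC libraries, 1.21, 1.39 and 1.66 kb in the FL libraries and 1.51 and 2.33 kb in E12.5 mandible, whatever gene they were assigned to. Each MC library lay above each FL and E12.5 library, with means of 4.60 ± 1.86 kb for MC and 1.42 ± 0.23 kb for FL (SD, n = 3 each). Between all protein-coding genes, 5.99% of 8515 gaps had MC libraries all above FL libraries. An exact permutation test of 3 libraries against 3 cannot give a two-sided p under 0.1, and this stretch was chosen after seeing the data, so no test is given. In this stretch, MC libraries held peaks in 10 of 14 regions and FL libraries in 5, beside 46.0% and 53.2% of all regions. Without E12.5 replicate 1 the shares over all regions were 57.4% and 66.5%. Of the 14 regions, 10 held a peak in an MC or FL library, a count that does not rest on E12.5 replicate 1. The region chr1:120595913-120597765, 5.65 kb upstream of the start, was called in 3 of 3 MC, 1 of 3 FL and 1 of 2 E12.5 libraries. The MC libraries held different parts of it. The replicate 2 peak lay at -6.574 to -5.836 kb from the start and the replicate 3 peak at -5.347 to -4.722 kb, without overlap. The combined H3K27ac lists differed at the same place: the MC list had a single peak of 16.3 kb just upstream of En1, and the FL list had no peak in the gap.

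Downstream of En1, in the 696 kb up to Insig2, which encodes a regulator of sterol synthesis, the FL mean was the higher one but the libraries overlapped. ATAC peaks there summed to 10.9, 7.32 and 8.92 kb in the MC libraries, 15.3, 11.7 and 10.5 kb in the FL libraries and 4.21 and 16.2 kb in E12.5 mandible. The overlap came from MC replicate 1. Regions chr1:120740942-120741762 and chr1:120760952-120761791, 139 and 159 kb downstream of the start, were each called in none of 3 MC libraries, in all 3 FL libraries and in 1 of 2 E12.5 libraries. The one at 159 kb carried H3K27ac peaks in the combined lists of both tissues, and the one at 139 kb in neither. A region 165 kb downstream, chr1:120766672-120767806, was called in all 3 MC and all 3 FL libraries and in neither E12.5 library. The region called in all 8 libraries, chr1:120714855-120716240, lies 113 kb downstream and had no H3K27ac peak in the combined list of either tissue.

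Combined H3K27ac cover of En1 was 65.0 kb over 9 peaks in MC and 51.3 kb over 5 peaks in FL, and En1 was the only one of the 4 genes with the higher value in MC (log2 ratio 0.50). The MC list alone had peaks of 6.26, 3.89 and 6.22 kb, 11.3, 41.1 and 101 kb downstream of the start. The FL list alone had a peak of 20.8 kb, 256 kb downstream, where its combined ATAC list had none. With peaks limited to 100 kb the log2 ratio was 3.05. In the combined ATAC lists En1 had 4.56 kb over 5 peaks in MC, 7.09 kb over 9 peaks in FL and 8.05 kb over 10 peaks in E12.5 mandible, with a log2 ratio of MC to FL of -0.40, which was 0.32 within 100 kb.

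Emx2 (chr19:59458690-59465357, plus strand) had less assigned ATAC cover in every MC library than in any FL library, as in 8.96% of genes. It had 5.09, 2.60 and 3.01 kb in the MC libraries, 5.91, 6.40 and 5.69 kb in the FL libraries and 3.63 and 6.75 kb in E12.5 mandible. The means were 3.57 ± 1.34 kb for MC and 6.00 ± 0.36 kb for FL (SD, n = 3 each), and the E12.5 libraries fell on both sides of the gap between them. The log2 difference was -0.72 (SE 0.37, 95% interval -1.55 to 0.10) and did not pass limma's test (adjusted p = 0.993).

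A distal region 83.5 kb downstream of Emx2, chr19:59541413-59542882, was open in all 8 libraries and carried H3K27ac peaks in the combined lists of both tissues. Beyond it, chr19:59587229-59587732, 129 kb downstream, was called in none of 3 MC libraries, in all 3 FL libraries and in neither E12.5 library, although it lay inside H3K27ac peaks of 9.06 kb in the MC list and 17.1 kb in the FL list. Close beside this region, peaks lay 129.2 to 130.1 kb downstream in MC replicate 1 and 129.2 to 130 kb in FL replicate 2. An E12.5 replicate 2 peak lay there at 129.5 to 129.8 kb. Just inside the gene, chr19:59459073-59460227 was called in no MC library, in 2 of 3 FL libraries and in both E12.5 libraries. The region 4.47 kb upstream of the start, chr19:59453545-59454898, was called in 1 of 3 MC libraries, in 3 of 3 FL libraries and in both E12.5 libraries.

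In the combined lists Emx2 had 2.08 kb of ATAC cover over 2 peaks in MC, 3.90 kb over 6 peaks in FL and 4.93 kb over 4 peaks in E12.5 mandible. Its H3K27ac cover was 33.2 kb over 6 peaks in MC and 46.1 kb over 5 peaks in FL, a log2 ratio of -0.31. That ratio was -0.93 with equal numbers of peaks from both lists, and turned to 0.07 with peaks within 100 kb and 0.11 with every peak within 250 kb, so no direction is given for the gene as a whole. The MC list had a 6.33 kb peak over the start and most of the gene, where the FL list had none, and the FL list had a 6.59 kb peak 32.4 kb downstream, where the MC list had none. The mark at the gene and the mark downstream of it differed in opposite directions between the combined lists.

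**Figure D3:**
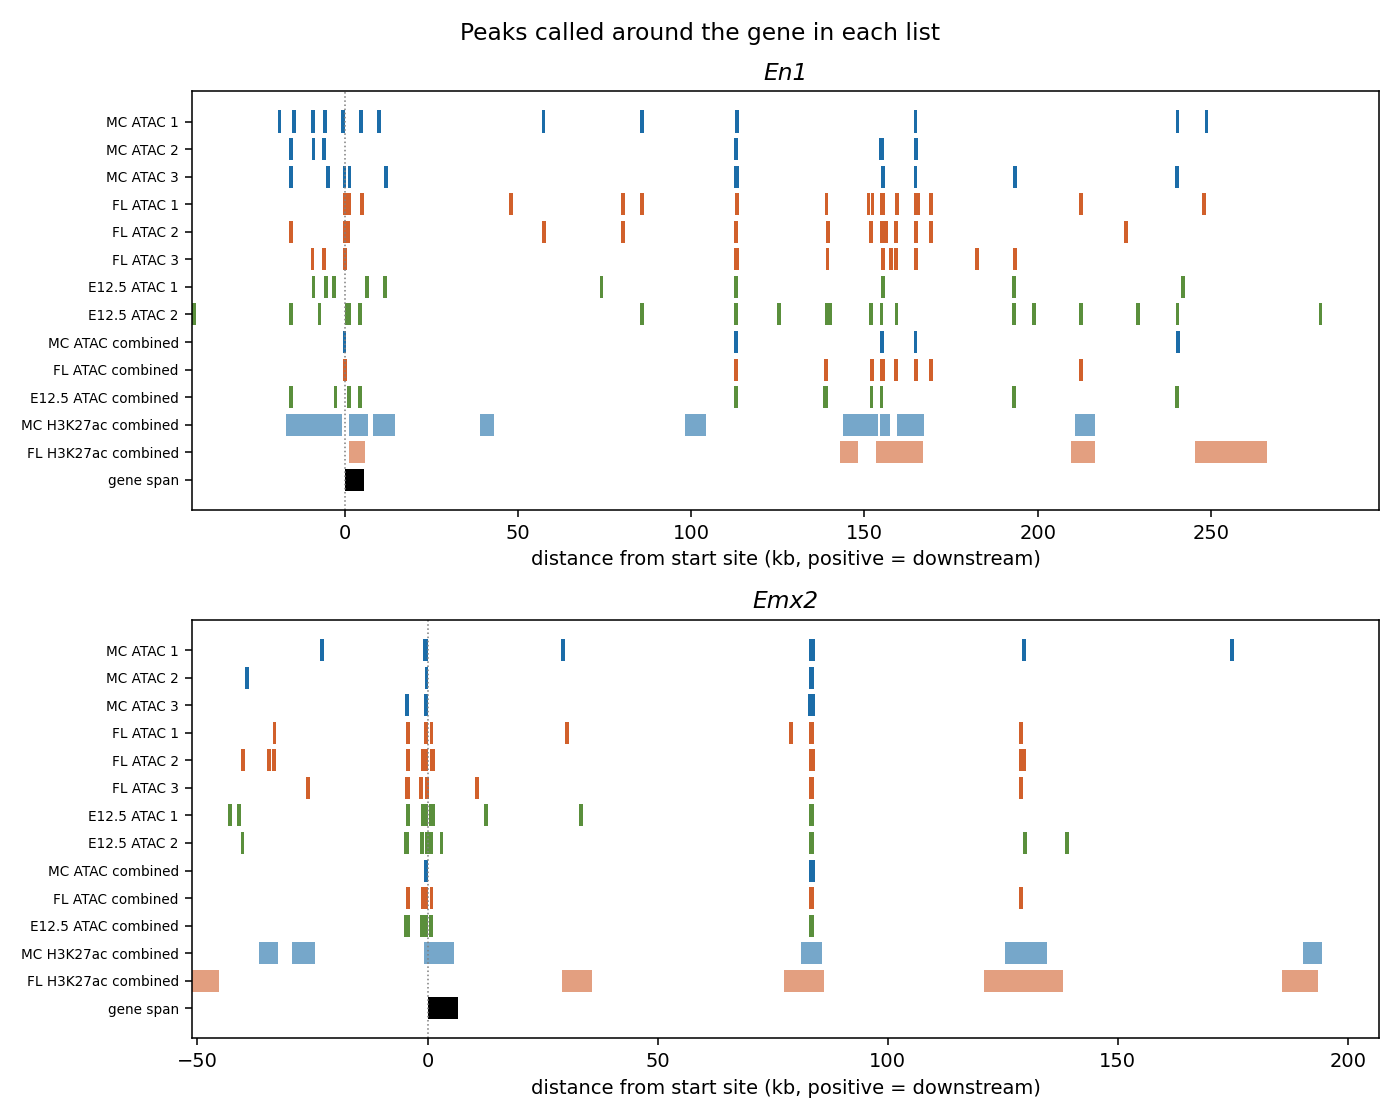
Peaks around En1 and Emx2 by distance from the start site (kb, horizontal axis; positive is downstream), with rows as labelled. MC rows are denser just upstream of En1, under the 16.3 kb MC H3K27ac peak, and the 6.33 kb MC H3K27ac peak over the start of Emx2 has no FL counterpart.

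Peak by peak, 84 of the 131 regions held an ATAC peak in at least 1 MC or FL library. None of the 84 was called in every MC library and in no FL library (0.529% of 109068 regions in all), and 5 were called in no MC library and in every FL library (5.95%, against 2.34% of all regions). The 5 were spread over the 4 genes, with 1 each at Shox2, Lmx1b and Emx2 and 2 at En1. Their peaks in the combined FL list had a signal percentile of 74.4 at Shox2 and 18.5 at Lmx1b. At En1 the percentiles were 25.1 and 22.5, and at Emx2 28.9, so all but the Shox2 peak were weak. The regions at Lmx1b and Emx2 also had a peak of MC replicate 1 close beside them. The count of 5 was 10 without FL replicate 3, and 2 when peaks had to cover at least 50% of a region or when every list was cut to the same number of peaks. Of the 131 regions, 76 were called in 1 library only (58.0%, against 52.1% of all regions), and without E12.5 replicate 1 this held for 48 of 97 (49.5%, against 46.7%).

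The gaps beside the genes sum this cover without regard to the gene to which a peak was assigned. A gap of 675 kb lies between Shox2 and Veph1. There ATAC peaks summed to 7.95, 8.11 and 8.40 kb in the MC libraries, 18.4, 13.1 and 16.0 kb in the FL libraries and 0.81 and 10.0 kb in E12.5 mandible. The MC values were nearly equal and all below those of FL, with means of 8.15 ± 0.23 kb for MC and 15.8 ± 2.66 kb for FL (SD, n = 3 each), while 9.67% of gaps between protein-coding genes had MC libraries all below FL libraries. Combined H3K27ac cover of this gap was 23.4 kb over 3 peaks in MC and 67.9 kb over 9 peaks in FL. Of 33 regions in the gap with a peak in an MC or FL library, 3 were called in no MC library and in every FL library. Over all regions that share was 2.34%. The 3 were the Shox2 region 331 kb downstream of the start and 2 others that fell to Veph1, chr3:66535383-66536196 and chr3:66543897-66544613. On the Pdzd8 and Rab11fip2 sides of Emx2, and on the Zbtb43 and Mvb12b sides of Lmx1b, MC and FL libraries overlapped.

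**Figure D4:**
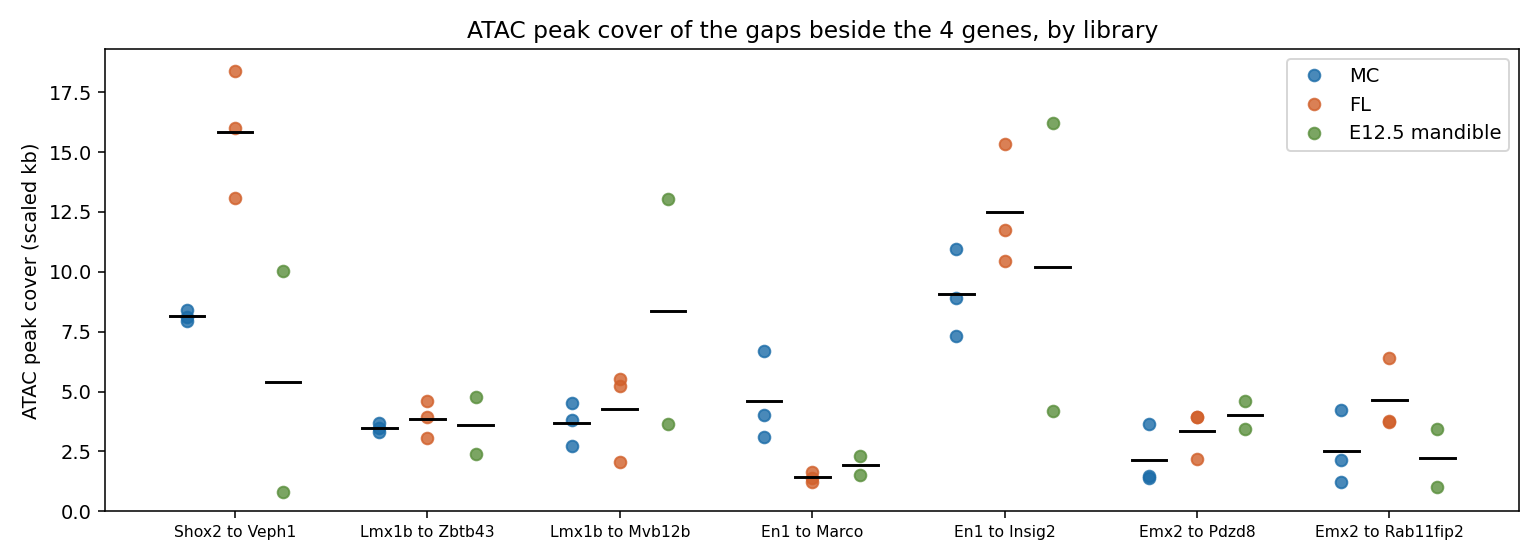
ATAC peak cover (scaled kb, vertical axis) of the gaps between each gene and its neighbours, in each MC, FL and E12.5 mandible library (points) with the mean (line). MC lies below FL between Shox2 and Veph1 (8.15 and 15.8 kb on average) and above FL between En1 and Marco (4.60 and 1.42 kb).

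**Figure D5:**
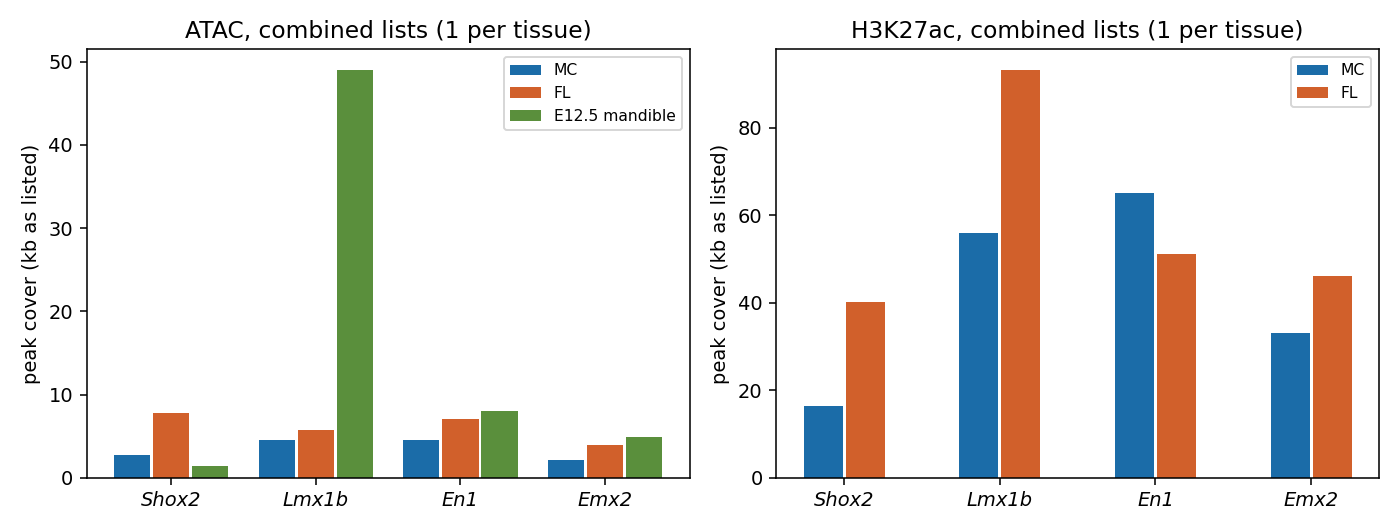
Peak cover (kb as listed, vertical axis) assigned to each gene in the authors' combined ATAC lists and combined H3K27ac lists, 1 list per tissue and no error bar. H3K27ac cover is higher in MC at En1 alone (65.0 kb for MC and 51.3 kb for FL), and the E12.5 ATAC bar of Lmx1b reaches 49.0 kb.

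Against E12.5 mandible, none of the 4 genes differed past the threshold in MC or in FL. E14.5 MC minus E12.5 mandible gave log2 differences of 0.62 for Shox2, -0.74 for Lmx1b, 0.07 for En1 and -0.48 for Emx2, with limma adjusted p of 0.727, 0.716, 0.965 and 0.723. The median over all 16176 genes was 0.23, and the sign of Shox2, Lmx1b and En1 reversed without E12.5 replicate 1, to -0.265, 0.32 and -0.525. Emx2 stood at -0.88 without it. MC and E12.5 libraries overlapped at all 4 genes. Of the 4 genes, Shox2 was furthest apart between FL and E12.5 mandible, at a log2 difference of 1.60 (SE 0.55, 95% interval 0.36 to 2.83), with FL libraries all above the E12.5 libraries, as in 16.5% of genes (9.75% had FL all below). With each start peak counted for Shox2 the FL libraries had 12.7, 5.99 and 9.51 kb and the E12.5 libraries 1.03 and 6.05 kb, so the groups overlapped (log2 difference 1.58). The difference did not pass limma's test (adjusted p = 0.397), and without E12.5 replicate 1 the difference was 0.71. Lmx1b differed by -1.01, En1 by 0.17 and Emx2 by 0.25 between FL and E12.5 mandible (limma adjusted p of 0.446, 0.841 and 0.733), and without that library they stood at 0.05, -0.43 and -0.16.

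With E12.5 replicate 2 left out, so that replicate 1 stood alone and was assumed to vary like the other groups, Lmx1b passed limma's test against MC (-1.79, adjusted p = 0.0314) and FL (-2.06, adjusted p = 0.0147), and Shox2 against FL (2.48, adjusted p = 0.0117). In those fits 3752 and 6151 genes passed, where none passed with both libraries. Over regions, 2 of 109 were called in every MC and no E12.5 library (1.83%, against 1.08% of all regions), 3 of 109 in no MC and every E12.5 library (2.75%, against 1.92%), 5 of 118 in every FL and no E12.5 library (4.24%, against 2.76%) and 1 of 118 in no FL and every E12.5 library (0.847%, against 2.01%). Without E12.5 replicate 1, against replicate 2 alone, these counts were 3 of 71 (4.23%, against 2.20% of all regions), 21 of 71 (29.6%, against 25.1%), 5 of 82 (6.10%, against 4.28%) and 15 of 82 (18.3%, against 20.0%) in the same order. The FL regions among these included the start of En1, chr1:120601924-120602587.

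The genes that act with these 4 in the limb were counted from fixed lists, beside 9.17% of all genes with MC libraries all above FL and 8.96% all below. Of 8 dorsoventral genes, 2 were higher in MC without overlap, Wnt7a, the dorsal ectodermal signal, and Msx1, a homeobox factor of bone morphogenetic protein signalling, and 1 was lower, Lef1, which mediates Wnt signalling. Of 10 proximal limb and girdle genes, 1 was higher in MC without overlap and 4 were lower. The higher one was Alx4, a homeobox factor of limb and skull (11.4 ± 3.94 kb for MC and 3.88 ± 0.92 kb for FL; SD, n = 3 each). The lower ones included Tbx15 (2.94 ± 0.47 kb for MC and 8.93 ± 0.84 kb for FL), a T-box factor of the scapula, together with Pax1 and Gli3. Of the LIM homeobox pair, Lhx9 was lower in MC (1.73 ± 0.44 kb for MC and 4.50 ± 0.76 kb for FL) and Lhx2 overlapped. The paralogues Lmx1a, En2 and Emx1 overlapped. No gene of any list passed limma's test; the median log2 differences were 0.30 for the dorsoventral list, -0.38 for the proximal list, -0.69 for the LIM pair and 0.55 for the paralogues, beside 0.03 over all genes.

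Over the 8 ATAC libraries, the genes whose log2 cover followed each of the 4 most closely were other loci altogether, among 13265 genes compared. They were Drd3, Dstyk and Lrrc1 for Shox2 (Pearson's r of 0.981, 0.979 and 0.973), Acsf3, Ephb2 and Unc5b for Lmx1b (0.990, 0.985 and 0.984), Fam162b, Prim2 and Thrb for En1 (0.981, 0.970 and 0.963), and Tecrl, Slc10a2 and Htr1f for Emx2 (0.968, 0.966 and 0.960). Among the 4 themselves, r was 0.64 between En1 and Emx2, 0.61 between Shox2 and En1, and -0.87 between Shox2 and Lmx1b. These values describe 8 points that share library totals and the outlying E12.5 replicate 1, at which Lmx1b was highest and Shox2 lowest.

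Last, the H3K27ac lists of single libraries did not show the peaks of the combined lists. Of 91 peaks that the 3 MC libraries gave to the 4 genes, 8 lay on a combined MC peak (8.79%), and of 86 in FL, 6 lay on a combined FL peak (6.98%). Over all genes the share was 10.3% to 12.6% per library. Shox2 had 9.62, 4.21 and 4.54 kb in the MC libraries and 5.27, 6.99 and 6.60 kb in the FL libraries, so the 2 tissues overlapped. They overlapped also at Lmx1b, En1 and Emx2. The differences of the combined H3K27ac lists have no replicate check here.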

How the data were processed

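ATAC-seq libraries of MC, FL and E12.5 mandible and H3K27ac CUT&Tag libraries of MC and FL were used. The Hi-C and 4C samples are not used here. The submitters' processing notes name mm10, Trim Galore, Bowtie2, SAMtools, Genrich and SEACR, without versions or thresholds. The deposited ATAC lists hold the authors' peak score, peak signal and -log10 p. The deposited H3K27ac lists hold the authors' total and highest signal per peak. The authors' combined lists are pooled, so their values carry no SD, n or test. Read counts are not given in the sources used here, so depth is unknown.

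Peaks on autosomes and X were assigned with the RefSeq table of GRCm38.p6. Kb of peaks per gene were scaled to the mean list total, filtered at a mean of 0.3 kb and fitted on log2(kb + 0.5) with limma 3.58.1 in R 4.3.3, all 8 ATAC lists in 1 fit, without a replicate block. Calls needed an adjusted p (Benjamini-Hochberg, two-sided) under 0.05. Combined lists were compared on log2(kb + 0.5). Regions are merged peaks of the 8 lists, called in a list that overlaps them. The fit was tested on simulated data with known differences. Python 3.11.15, pandas 2.3.3, numpy 2.4.6 and matplotlib 3.10.9 were used.

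The 4 genes, the lists, the tests and the naming rule (the 4 genes, list genes whose MC and FL libraries do not overlap, neighbours, the 3 genes of highest correlation, and regions called in every list of a group and none of another, in all 8 lists or over a start) were chosen with earlier results of these data known. Regions and gaps named outside this rule were chosen after their values were seen. 1 gene counted among the proximal limb and girdle genes and 1 searched motif, which had no match in the 4 windows, are not reported here.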

Additional observations from a re-analysis of the deposited data

How the results depend on the processing

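Of 539 alternative values, 495 kept their direction and side of the threshold or moved little. Genes passing limma's test numbered 20 (MC against FL), 11 (E14.5 MC against E12.5 mandible) and 6 (FL against E12.5 mandible) with a pseudocount of 0.1 kb, where 0 passed in each comparison with 0.5 kb and 849, 921 and 1996 had an unadjusted p under 0.05. For MC against FL, 8 passed in a fit of MC and FL alone. Leaving out 1 library gave 0 to 8, 0 to 3752 and 0 to 6151 genes in the same order of comparisons.

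Leaving out 1 library moved the log2 difference of MC minus FL between -1.22 and -0.667 for Shox2, 0.0621 and 0.462 for Lmx1b, -0.289 and 0.101 for En1 and -0.977 and -0.552 for Emx2. It moved E14.5 MC minus E12.5 mandible between -0.265 and 1.5 for Shox2, -1.79 and 0.317 for Lmx1b, -0.525 and 0.671 for En1 and -0.882 and -0.0702 for Emx2. It moved FL minus E12.5 mandible between 0.715 and 2.48 for Shox2, -2.06 and 0.0465 for Lmx1b, -0.431 and 0.766 for En1 and -0.158 and 0.654 for Emx2. The signs turned for En1 in MC minus FL without MC replicate 2 (0.0663) or FL replicate 1 (0.101), in E14.5 MC minus E12.5 mandible without MC replicate 1 (-0.122), and in FL minus E12.5 mandible without FL replicate 1 (-0.0275).

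Other settings turned En1 in MC minus FL (0.626 within 100 kb, 0.0691 for every peak within 250 kb), in E14.5 MC minus E12.5 mandible (-0.402 without scaling, -0.0542 by number of peaks) and in FL minus E12.5 mandible (-0.298 without scaling, -0.481 within 100 kb). They turned Emx2 in FL minus E12.5 mandible (-0.205 without scaling) and Shox2 in E14.5 MC minus E12.5 mandible (-0.00201 within 100 kb). Without scaling, the median over all genes shifted to -0.14 for E14.5 MC minus E12.5 mandible and -0.10 for FL minus E12.5 mandible.

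The count of 5 regions called in every FL and no MC list was 2 with at least 50% cover, 2 with equal numbers of peaks, 1 within 100 kb and 5 to 10 without 1 library. The count of 0 in every MC and no FL list was 0 to 1 without 1 library. In the combined ATAC lists, Shox2 stood at -0.387 within 100 kb and -0.389 for every peak within 250 kb, and En1 at 0.322 within 100 kb. In the combined H3K27ac lists, Shox2 stood at -0.335 and Lmx1b at 0.0339 for every peak within 250 kb, En1 at 3.05 within 100 kb and Emx2 at -0.933 with equal numbers of peaks. The cause was not tested in any of these.

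Replicates share numbers across tissues. Deviations of same-numbered MC and FL libraries correlated at 0.0431, 0.0516 and 0.0482, each the highest for its library, as a hint from the data and not from the design. With a replicate block, 0 genes passed in each comparison, the differences of MC minus FL were -0.98 for Shox2, 0.271 for Lmx1b, -0.094 for En1 and -0.724 for Emx2, and no call changed. Depth is unknown, so a region listed in no library of a tissue may hold reads under the authors' threshold.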
